A study of Rattus norvegicus with 18 samples.

Results

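Rats had the left ureter tied under ketamine anaesthesia and left blocked for a set number of days (unilateral ureteral obstruction, a model of obstructive nephropathy), and mRNA of their renal parenchyma was then sequenced. The comparison described here set the 3 libraries labelled 14 days of ligation against the 5 libraries of 3 days, 8 of the 18 libraries of the series. The other 10 libraries, 5 of 1 day and 5 of 7 days, appear only as ranges of levels. All groups carried the ligation, every library has the same batch label, and the labels give no strain, sex or age. The design names a sham group, but none of the 18 libraries is labelled sham, so no value below is set against unobstructed kidney. The labels do not tie each library to its own animal, and p-values therefore measure the spread between libraries, which may be technical. Of 30957 genes in the table, 13920 passed a filter on low counts and were tested. A gene was called where edgeR's quasi-likelihood test gave an adjusted p (Benjamini-Hochberg) below 0.05, and all adjusted p-values of genes come from that test unless another fit is named. It was called separated where all 3 libraries labelled 14 days lay above, or all lay below, all 5 libraries of 3 days in CPM, counts relative to the scaled library size. FPKM, the authors' values per gene length and depth, are given as levels. The account keeps to the 1542 genes that met both conditions in the same direction.

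The nephron filters blood at the podocyte-covered glomerulus, recovers most solute in the proximal tubule, dilutes urine in the thick ascending limb and sets its final concentration in the collecting duct and medulla. When outflow is blocked, tubule cells are known to switch on injury genes such as Havcr1 and Spp1, some enter the cell cycle, macrophages and T cells gather, and fibroblasts lay down collagen. In rodents the injury genes are known to stay on and fibrosis to build up while the ligation lasts.

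Depth was 6369320, 5623716 and 6445118 counts in replicates 1, 2 and 3 labelled 14 days, against 6899498 to 12049915 counts at 3 days. The 5 libraries of 3 days resembled each other closely, with Pearson's r of log-scale levels across genes of 0.951 to 0.984 over 10 pairs. Of the libraries labelled 14 days, replicates 1 and 3 resembled each other (r = 0.939), while replicate 2 gave 0.783 with replicate 1 and 0.720 with replicate 3. Replicate 2 was nearer to the libraries of 3 days (0.876 to 0.900 over 5 pairs) than replicates 1 and 3 were (0.772 to 0.841 over 10 pairs). Genes are not independent replicates, so these correlations are descriptions. Results are therefore given also without replicate 2 and for replicate 2 alone, where the lone library is assumed to vary like the 5 of 3 days. Both of these fits share the libraries of 3 days.

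The injury markers were looked at beside the label. Havcr1 (kidney injury molecule 1, chr10:31813814-31848379 in the deposited table, which names no genome build) is a surface protein of damaged proximal tubule. It had 1.52, 7.45 and 0.317 FPKM in the libraries labelled 14 days, against 542, 559, 188, 536 and 540 FPKM at 3 days. Its ranges were 640 to 1040 FPKM at 1 day and 258 to 505 FPKM at 7 days, so the 3 libraries labelled 14 days lay below every other library of the series. Spp1 (osteopontin, chr14:6673686-6679901 in the same table), a secreted phosphoprotein of injured tubule, had 36.8, 258 and 80.1 FPKM in the libraries labelled 14 days, against 8967, 9965, 6516, 10180 and 15440 FPKM at 3 days. These levels were unlike what is known of lasting obstruction. Whether the label or the piece of tissue taken played a part was not tested, and the group is called "the libraries labelled 14 days" throughout. In bulk tissue, fewer cells of a type and less RNA per cell cannot be told apart.

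Across all tested genes, 1851 (13.3%) were called, 921 higher and 930 lower in the libraries labelled 14 days. Separation alone, without the test, held for 2825 genes (20.3%). Both conditions held for 1542 genes (11.1%), of which 622 (4.47% of tested genes) were higher and 920 (6.61%) were lower in the libraries labelled 14 days. Among these, 161 were at least 4-fold higher and 328 at least 4-fold lower. A further 309 genes were called although their libraries overlapped. Counts of list members below are to be read beside the shares of 4.47% and 6.61%.

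**Figure D1:**
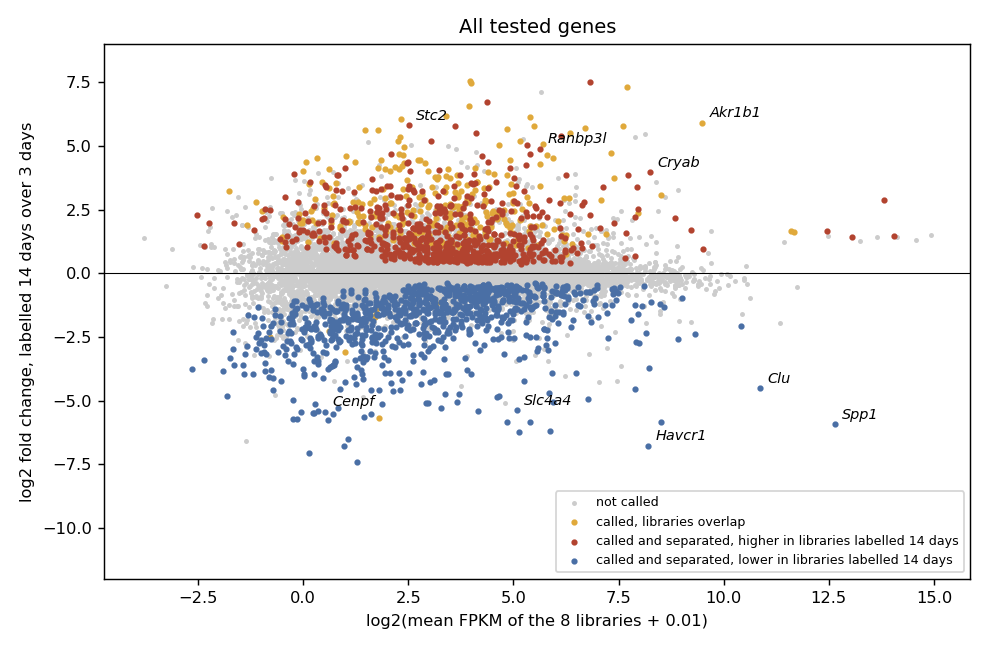
Log2 fold change of the libraries labelled 14 days over 3 days (vertical) against the log2 of mean FPKM plus 0.01 (horizontal) for 13920 tested genes. Red and blue points are the 622 higher and 920 lower genes that were called and separated, yellow points the 309 called genes whose libraries overlapped, and grey points genes that were not called.

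The balance of the directions depended on how libraries were scaled. With the TMM factors used here 49.8% of called genes were higher in the libraries labelled 14 days, against 53.6% with RLE factors, 42.1% with upper-quartile factors, 22.7% with total counts and no factors, and 8.34% with limma on log2(FPKM+1). The median log2 fold change of all tested genes was 0.065 with TMM factors and -0.173 without factors, and fold changes below are on the TMM scale. FPKM carry no TMM factor: all but 1 of the 920 lower genes (919) were separated in FPKM too, but only 219 of the 622 higher genes were. The mitochondrially encoded genes took 23.7%, 27.1% and 14.2% of counts in replicates 1, 2 and 3 labelled 14 days, against 7.05% to 13.3% at 3 days. Their mean share was 21.7% ± 6.67 (SD, n = 3) in the libraries labelled 14 days and 9.22% ± 2.38 (SD, n = 5) at 3 days, a difference of 12.5 percentage points (exact permutation test, two-sided, p = 0.0357, the smallest that 56 arrangements allow), and its part in the fold changes was not tested beyond a fit without these genes, which called and separated 1561 genes.

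Leaving out a single library moved the count of 1542 by more than 1.5 times in 7 of the 8 fits in which each library was left out in turn. It was 581, 5746 and 1117 without replicates 1, 2 and 3 labelled 14 days, and 748, 709, 973, 568 and 830 without replicates 1 to 5 of 3 days. Without replicate 2, 2938 genes (20.4%) were higher and 2808 (19.5%) lower in the remaining 2 libraries labelled 14 days. Counts of list members without replicate 2 are to be read beside these shares. Without replicates 1 and 3 labelled 14 days, 220 and 387 genes were higher and 361 and 730 lower, of 14155 and 14149 tested. Without replicates 1 to 5 of 3 days, 265, 235, 362, 184 and 299 were higher and 483, 474, 611, 384 and 531 lower. Between 13778 and 13902 genes were tested in these 5 fits. List counts from these 7 fits are to be read beside these totals, all below the 622 and 920 of the fit with all libraries. With replicate 2 alone, 1451 (10.0%) were higher and 1410 (9.74%) lower. A fit that gave each group its own spread (limma voom with weights per group) called 104 genes, all of them separated, 48 higher (0.345%) and 56 lower (0.402%). Genes that this stricter fit also called are marked as such below.

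Within the 622 higher genes, replicate 2 was the lowest of the 3 libraries labelled 14 days for 423 genes, replicate 1 for 89 and replicate 3 for 110. Within the 920 lower genes, replicate 2 was the highest of the 3, and so the nearest to 3 days, for 401 genes, replicate 3 for 334 and replicate 1 for 185. The genes at the edge of the rule differed little from each other. Mllt6 was just inside, with 158, 94.5 and 141 CPM in the libraries labelled 14 days, against 69.6 to 94.5 CPM at 3 days, and Rarg just outside, with 84.5, 35.8 and 89.7 CPM in the libraries labelled 14 days, against 28.0 to 35.8 CPM at 3 days. Of the 1542 genes, 974 also had all 3 libraries labelled 14 days outside the range of all 15 other libraries, 339 above and 635 below. The 1542 genes had already been kept for lying outside the libraries of 3 days, which are among the 15. The share over all tested genes was not counted, so the 974 are a description only.

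Several tubular injury genes were lower in all 3 libraries labelled 14 days. Of 32 tested members, 14 fell and none rose by both conditions (background 6.61% and 4.47%), with a median log2 fold change of -0.73, against 0.065 over all genes. Havcr1 had a log2 fold change of -6.78 (SE 1.22, adjusted p = 0.015) and Spp1 one of -5.93 (SE 0.93, adjusted p = 0.01), both also called with a spread per group. The call on Havcr1 ended without replicate 1 labelled 14 days, and that on Spp1 held whichever library was left out. Lcn2, the iron-siderophore carrier lipocalin 2, had 12, 3.8 and 11.2 FPKM in the libraries labelled 14 days, against 344, 322, 174, 395 and 1674 FPKM at 3 days, a log2 fold change of -5.83 (SE 0.97, adjusted p = 0.012). The groups were far apart although replicate 5 of 3 days stood well above its own group.

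Other secreted and surface products of stressed tubule moved the same way. Clu, the chaperone clusterin, averaged 114 ± 68 FPKM in the libraries labelled 14 days and 2904 ± 882 FPKM at 3 days (SD, n = 3 and 5), a log2 fold change of -4.52 (SE 0.51, adjusted p = 0.0038), also called with a spread per group. Complement C3 had 0.612, 1.45 and 0.963 FPKM in the libraries labelled 14 days, against 44.7, 53.5, 46.2, 61.7 and 256 FPKM at 3 days, a log2 fold change of -6.21 (SE 0.95, adjusted p = 0.0092). Tnfrsf12a, the TWEAK receptor, had 33.1, 37.5 and 23.2 FPKM in the libraries labelled 14 days, against 179 to 252 FPKM at 3 days, a log2 fold change of -2.53 (SE 0.28, adjusted p = 0.0035), also called with a spread per group. The lack of overlap between the groups is part of the rule that kept these genes. Anxa3, an annexin, had a log2 fold change of -2.07 (SE 0.29, adjusted p = 0.0074). Fibrinogen chain Fgb was listed at 0, 1.78 and 0.0457 FPKM in the libraries labelled 14 days, against 21.1 to 84.6 FPKM at 3 days, but its call (log2 fold change -5.83 (SE 1.32, adjusted p = 0.029)) held in only 1 of the 8 fits with a library left out, the one without replicate 2 labelled 14 days.

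The count of falling members changed with the libraries used, as the count over all genes did. The 14 falling members became 8, 17 and 11 without replicates 1, 2 and 3 labelled 14 days, and 10 to 13 without any 1 library of 3 days. Without replicate 2, 7 members rose, against none in the fit with all libraries. Those 7 of 32 members were near the 20.4% of all genes that rose in the fit without replicate 2. In replicate 2 alone 19 members were lower and 1 was higher. The summed FPKM of the list was 4232, 1091 and 4697 in the libraries labelled 14 days, against 13590 to 25740 at 3 days.

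**Figure D2:**
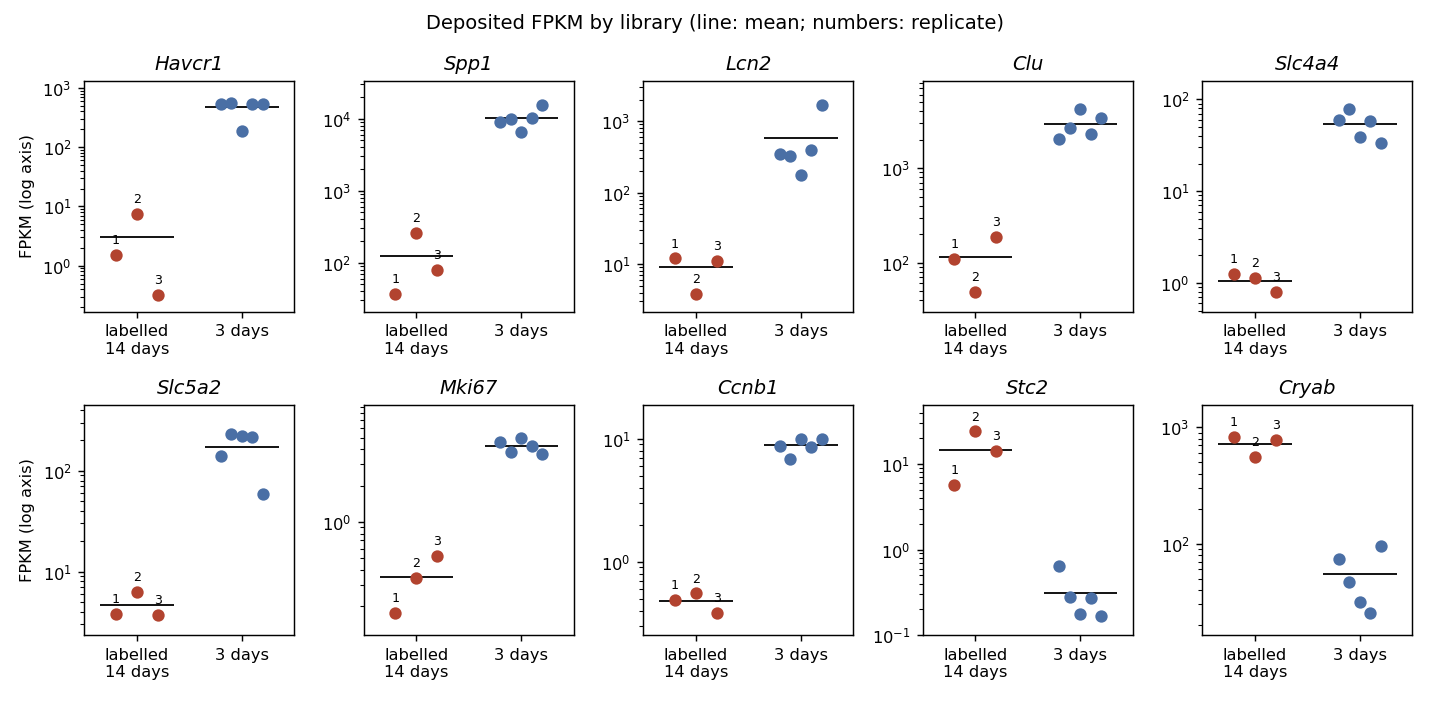
FPKM on a log axis for 10 genes, with the 3 libraries labelled 14 days (red, numbered by replicate) left of the 5 libraries of 3 days (blue) and a line at each group's mean. In the 8 genes from Havcr1 to Ccnb1 every library labelled 14 days lay below every library of 3 days, and in Stc2 and Cryab every one lay above.

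Outside the injury list, several of the largest falls were also seen in all 3 libraries labelled 14 days. Apcs, serum amyloid P component, had 1.11, 0.721 and 0 FPKM in the libraries labelled 14 days, against 31.6 to 80.9 FPKM at 3 days, a log2 fold change of -6.24 (SE 0.76, adjusted p = 0.0045). Mab21l3 had 1.08, 1.22 and 0.515 FPKM in the libraries labelled 14 days, against 45.8 to 103 FPKM at 3 days, a log2 fold change of -5.85 (SE 0.52, adjusted p = 0.0021), also called with a spread per group. Adamts1, a metalloproteinase that cleaves the proteoglycans aggrecan and versican, had 9.56, 15.4 and 12.9 FPKM in the libraries labelled 14 days, against 462, 397, 150, 417 and 426 FPKM at 3 days. Its log2 fold change of -4.57 (SE 0.47, adjusted p = 0.0029) was called with a spread per group as well. Slc10a2, the apical sodium bile acid transporter, had 0, 0.344 and 0.06 FPKM in the libraries labelled 14 days, against 3.87 to 7.26 FPKM at 3 days, a log2 fold change of -5.13 (SE 0.73, adjusted p = 0.0074). All 4 calls held whichever library was left out.

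Of all lists with at least 10 tested genes, cell division had the highest share of falling members. Of 46 tested members, 37 fell, none rose, and the median log2 fold change was -2.22. The fallen members covered cyclins, mitotic kinases, spindle and kinetochore proteins and the MCM helicase, all 6 of whose subunits fell, with log2 fold changes between -1.06 for Mcm7 and -2.10 for Mcm3. Over the 37 genes, log2 fold changes ran between -0.42 for Rrm1, a ribonucleotide reductase subunit whose call held in 1 of the 8 fits with a library left out (that without replicate 2 labelled 14 days), and -5.45 for Ttk, a kinase of the spindle checkpoint that was also called with a spread per group. Cenpf, a kinetochore protein, had 0.0156, 0.0353 and 0.077 FPKM in the libraries labelled 14 days, against 2.52, 1.97, 2.37, 2.44 and 1.92 FPKM at 3 days, a log2 fold change of -5.44 (SE 0.37, adjusted p = 0.0017). Mki67, the proliferation antigen Ki-67, had 0.175, 0.342 and 0.518 FPKM in the libraries labelled 14 days, against 4.62, 3.77, 4.97, 4.28 and 3.63 FPKM at 3 days, a log2 fold change of -3.38 (SE 0.34, adjusted p = 0.0029). Both were also called with a spread per group, and the libraries labelled 14 days lay far below those of 3 days.

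The mitotic cyclin Ccnb1 averaged 0.476 ± 0.0843 FPKM in the libraries labelled 14 days and 8.79 ± 1.27 FPKM at 3 days (SD, n = 3 and 5), a log2 fold change of -3.94 (SE 0.30, adjusted p = 0.0017). Ccna2, the cyclin of S phase and G2, averaged 0.358 ± 0.0927 FPKM in the libraries labelled 14 days and 4.08 ± 0.591 FPKM at 3 days (SD, n = 3 and 5), a log2 fold change of -3.27 (SE 0.26, adjusted p = 0.0017). Aurkb, the kinase of the chromosomal passenger complex, had a log2 fold change of -3.76 (SE 0.24, adjusted p = 0.0017) and was called with a spread per group. Polo-like kinase Plk1 had 0.912, 0.874 and 0.555 FPKM in the libraries labelled 14 days, against 3.56 to 6.07 FPKM at 3 days, a log2 fold change of -2.42 (SE 0.33, adjusted p = 0.0067). Each of these calls held whichever library was left out.

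The falls were present with and without replicate 2. The 37 falling members became 28, 40 and 36 without replicates 1, 2 and 3 labelled 14 days and 30 to 33 without any 1 library of 3 days, and in replicate 2 alone 38 were lower and none was higher. A spread per group called 8. Levels were also low at 1 day, where Mki67 had 0.813 to 2.29 FPKM and Ccnb1 1.93 to 3.49 FPKM, and high at 7 days, where Mki67 had 4.61 to 7.06 FPKM and Ccnb1 7.07 to 12.5 FPKM. The libraries labelled 14 days lay below all 10 of these for both genes. Replication genes did not all fall: Pcna, the sliding clamp of DNA polymerase, had a log2 fold change of -0.16 (SE 0.14, adjusted p = 0.507), and Gins2, of the replicative helicase complex, one of -0.09 (SE 0.16, adjusted p = 0.742). Mcm3, Mcm7, Rrm1, Ttk, Plk1, Pcna and Gins2 were picked out after their values were seen.

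**Figure D3:**
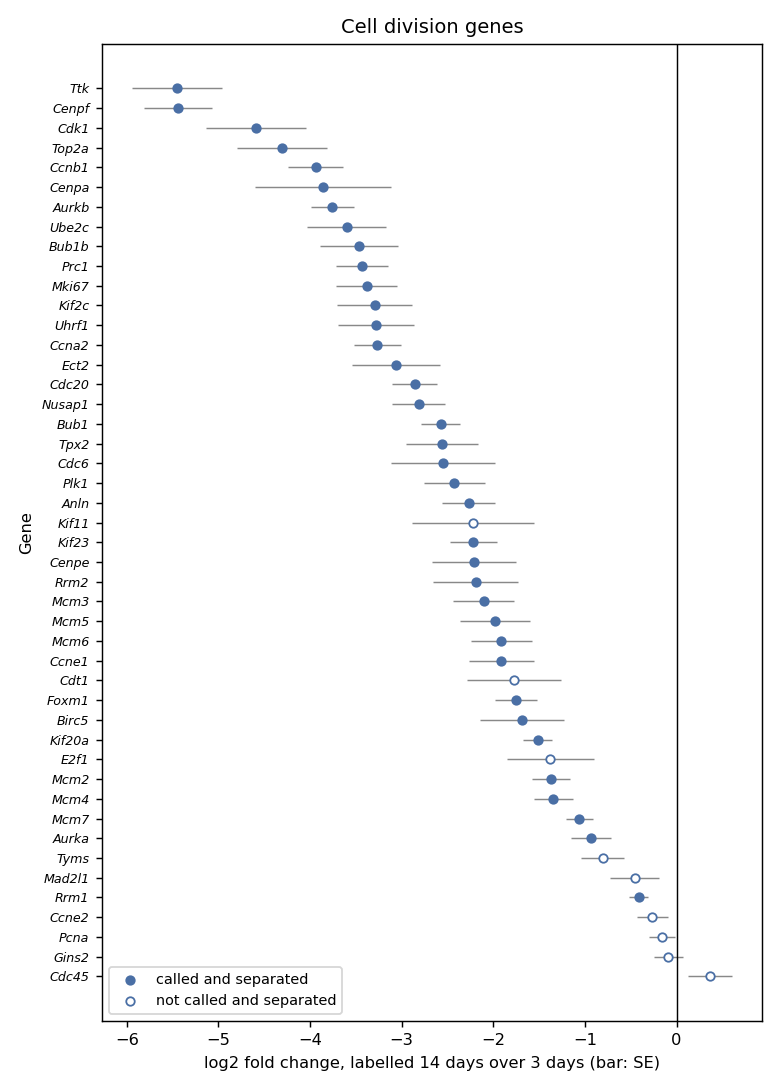
Log2 fold change of the libraries labelled 14 days over 3 days (horizontal, bars are standard errors) for 46 cell division genes. Filled points are the 37 members that were called and separated, all left of 0, and open points are those that were not.

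Promoters of 4 of these genes are shown because they hold short motifs known from cell cycle promoters. The windows are the 250 bases before the transcription start, from RefSeq on GRCr8, at chr13:103760887-103761136 for Cenpf, chr2:33655226-33655475 for Ccnb1 and chr1:199952594-199952843 for Mki67, all on the minus strand, and at chr1:186147408-186147657 for Plk1 on the plus strand. Sequences run 5′ to 3′ along the gene, and capitals mark CCAAT boxes, bound by the factor NF-Y, and the cell cycle homology region motifs TTTGAA and TTTAAA, each on either strand. In Mki67 a TTTGAA and a CCAAT box on the opposite strand overlap.
Cenpf: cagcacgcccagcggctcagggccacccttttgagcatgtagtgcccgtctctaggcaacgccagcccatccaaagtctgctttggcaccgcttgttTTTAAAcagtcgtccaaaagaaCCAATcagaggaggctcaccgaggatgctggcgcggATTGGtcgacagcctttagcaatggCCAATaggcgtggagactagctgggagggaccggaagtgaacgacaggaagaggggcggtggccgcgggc
Ccnb1: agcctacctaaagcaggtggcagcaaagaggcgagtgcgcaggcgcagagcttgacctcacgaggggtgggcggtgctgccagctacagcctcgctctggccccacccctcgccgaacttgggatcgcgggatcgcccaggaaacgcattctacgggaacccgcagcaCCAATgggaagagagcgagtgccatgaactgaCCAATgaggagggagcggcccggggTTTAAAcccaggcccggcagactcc
Plk1: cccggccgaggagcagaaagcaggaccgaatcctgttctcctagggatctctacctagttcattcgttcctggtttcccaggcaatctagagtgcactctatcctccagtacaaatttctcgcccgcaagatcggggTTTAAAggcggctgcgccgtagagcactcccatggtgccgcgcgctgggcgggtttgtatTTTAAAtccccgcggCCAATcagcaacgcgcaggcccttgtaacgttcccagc
Mki67: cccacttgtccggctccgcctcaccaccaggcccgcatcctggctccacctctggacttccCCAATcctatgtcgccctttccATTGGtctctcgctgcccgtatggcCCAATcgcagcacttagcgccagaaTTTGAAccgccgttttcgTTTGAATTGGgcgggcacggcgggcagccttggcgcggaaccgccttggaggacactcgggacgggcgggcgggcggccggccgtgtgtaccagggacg

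Of the 37 fallen genes, 29 matched a promoter by symbol. In windows of 300 bases, from 250 before to 50 after the start, CCAAT on either strand occurred in 22 of the 29 (75.9%), against 37.5% of all 33469 promoters. TTTGAA occurred in 16 (55.2%), against 18.3% of all promoters, and TTTAAA in 11 (37.9%), against 13.6%. The E2F-type motif TTTCGCG occurred in 6 (20.7%), against 0.819%. These are matches of letters and not tested sites, the shares were not tested, and promoters differ in base composition. The list was written as cell division genes, and members that did not fall were not set beside those that did. The shares therefore describe such genes and say nothing about their fall.

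Several macrophage and antigen presentation genes fell. Of 30 tested monocyte and macrophage genes 12 fell and none rose (median log2 fold change -1.46). Of 14 dendritic cell and MHC class II genes 6 fell and none rose (median -1.72). Of 23 T and NK cell genes 5 fell and none rose (median -1.21). Summed FPKM of the macrophage list was 174, 191 and 579 in the libraries labelled 14 days, against 919 to 1650 at 3 days. Of its defining markers Cd68 and Csf1r were detected in all 8 libraries, while Marco had no count in the libraries labelled 14 days, against 2 counts in all at 3 days, and Fcgr2a had no count in either group. Among T and NK cell genes Cd3d, Cd5, Gzma and Gzmb had no count in the libraries labelled 14 days, against 65, 19, 13 and 4 counts in all at 3 days.

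Csf1r, the receptor for macrophage colony-stimulating factor, had 3.63, 3.8 and 8.22 FPKM in the libraries labelled 14 days, against 21.5, 15.2, 18.5, 19.4 and 20.3 FPKM at 3 days, a log2 fold change of -1.65 (SE 0.24, adjusted p = 0.0082), also called with a spread per group. The NADPH oxidase subunits Cybb and Ncf1 had log2 fold changes of -1.90 (SE 0.28, adjusted p = 0.0084) and -1.68 (SE 0.24, adjusted p = 0.0073). Cd74, the invariant chain of MHC class II, had 34.3, 46.4 and 59.7 FPKM in the libraries labelled 14 days, against 224, 212, 444, 375 and 535 FPKM at 3 days, a log2 fold change of -2.69 (SE 0.42, adjusted p = 0.01). In none of these did the groups overlap, as the rule required. RT1-DMb, a class II peptide loading chain, had a log2 fold change of -2.52 (SE 0.30, adjusted p = 0.0044); RT1 genes resemble each other, and reads shared between them make single values uncertain.

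The T cell coreceptor gene Cd4, which rat macrophages also express, had 3.23, 3.96 and 6.03 FPKM in the libraries labelled 14 days, against 12.8 to 26.6 FPKM at 3 days, a log2 fold change of -1.86 (SE 0.30, adjusted p = 0.011). The T cell receptor subunit Cd3e had 0.209, 0.395 and 0.482 FPKM in the libraries labelled 14 days, against 0.965 to 3.44 FPKM at 3 days, and its call (log2 fold change -2.36 (SE 0.53, adjusted p = 0.029)) ended in 5 of the 8 fits with a library left out, those without replicates 1 and 3 labelled 14 days and replicates 1, 4 and 5 of 3 days. Cd68, a lysosomal protein of macrophages, was not called: it had 4.17, 2.44 and 22.4 FPKM in the libraries labelled 14 days, against 16.7, 9.69, 10.9, 16.9 and 28 FPKM at 3 days, with replicate 3 within the range of 3 days. Without that replicate Cd68 was called, and the falling macrophage genes numbered 23. They numbered 8 and 11 without replicates 1 and 2 labelled 14 days and 8 or 9 without any 1 library of 3 days. In replicate 2 alone 21 were lower. For MHC class II the count was 2, 7 and 5 without replicates 1, 2 and 3 labelled 14 days, with 2 genes rising without replicate 2, and 3 without replicate 4 and 4 to 6 without another library of 3 days. For T and NK cells it was 1, 8 and 1 without replicates 1, 2 and 3 labelled 14 days, with 1 gene rising without replicate 2, and 1, 5, 3, 1 and 2 without replicates 1 to 5 of 3 days.

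Matrix genes moved less as a group. Of 35 tested collagens and matrix proteins, 2 rose and 2 fell (median log2 fold change 0.54), near the 4.47% and 6.61% of all tested genes. Col1a1, the main fibrillar collagen chain, was not called: it had 10.9, 1.83 and 26.1 FPKM in the libraries labelled 14 days, against 31.7, 18.2, 31.4, 25.9 and 23.5 FPKM at 3 days, and 78.7 to 113 FPKM at 7 days. Col12a1, a fibril-associated collagen, fell, with 3.56, 4.38 and 1.93 FPKM in the libraries labelled 14 days, against 11.2 to 22.2 FPKM at 3 days (log2 fold change -2.12 (SE 0.40, adjusted p = 0.017)). Fbln5, which is needed for elastic fibres, also fell (log2 fold change -1.43 (SE 0.26, adjusted p = 0.015)). Both calls ended without replicate 1 labelled 14 days. Vcan, the proteoglycan versican, rose, with 13.8, 0.828 and 48 FPKM in the libraries labelled 14 days, against 0.338 to 0.839 FPKM at 3 days (log2 fold change 5.18 (SE 0.91, adjusted p = 0.014)), and its FPKM in replicate 2 lay within the range of 3 days. A fit without scaling factors left no rising gene in the list. Without any 1 library of 3 days 1 to 3 rose and 2 fell. Without replicate 2, 15 matrix genes rose and 2 fell. Without replicate 3 labelled 14 days 1 rose and 5 fell, without replicate 1 labelled 14 days 1 rose and none fell, and in replicate 2 alone 1 was higher and 18 were lower.

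Among enzymes that process matrix, more fell than rose. Of 30 tested members, 6 fell and 1 rose (median log2 fold change -0.05). Loxl1, a lysyl oxidase that crosslinks elastin, had 7.59, 7.96 and 14.7 FPKM in the libraries labelled 14 days, against 32.6 to 61.7 FPKM at 3 days, a log2 fold change of -1.83 (SE 0.27, adjusted p = 0.0086). Mmp14, a membrane metalloproteinase, and Bmp1, the procollagen C-proteinase, had log2 fold changes of -1.28 (SE 0.22, adjusted p = 0.013) and -1.13 (SE 0.17, adjusted p = 0.0086). Timp3, a matrix-bound inhibitor of metalloproteinases, was the rising member, with 836, 83.1 and 603 FPKM in the libraries labelled 14 days, against 65.6 to 112 FPKM at 3 days, and replicate 2 lay within 3 days in FPKM. Its log2 fold change of 2.52 (SE 0.53, adjusted p = 0.023) was called in only 1 of the 8 fits with a library left out, that without replicate 2 labelled 14 days. Without replicate 2 labelled 14 days 7 members fell and 11 rose, without replicate 3 labelled 14 days 9 fell and none rose, without any other library 5 or 6 fell and none rose, and in replicate 2 alone 17 were lower and none was higher.

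Some growth factors of injury fell, and early response genes changed in both directions. Of 23 genes of TGF-beta and other injury growth factors 6 fell and none rose (median log2 fold change 0.07). The falling genes numbered 2, 6 and 3 without replicates 1, 2 and 3 labelled 14 days and 3 or 4 without any 1 library of 3 days. Without replicate 2 labelled 14 days 4 rose, near the 20.4% of all genes in that fit, and 1 rose without replicate 5 of 3 days. Lif, a cytokine of the interleukin 6 family, had 0.564, 0.719 and 0.209 FPKM in the libraries labelled 14 days, against 26.6, 13.2, 14.4, 12.4 and 15.3 FPKM at 3 days, a log2 fold change of -4.75 (SE 0.49, adjusted p = 0.0029). Pdgfb, a mitogen of mesenchymal cells, had 12.7, 7.16 and 11.4 FPKM in the libraries labelled 14 days, against 31 to 50.3 FPKM at 3 days, a log2 fold change of -1.84 (SE 0.18, adjusted p = 0.0029), also called with a spread per group. Both calls held whichever library was left out. Myc, a transcription factor of growth, had 5.37, 10.8 and 10.3 FPKM in the libraries labelled 14 days, against 47 to 65.2 FPKM at 3 days, a log2 fold change of -2.42 (SE 0.30, adjusted p = 0.0049), and was called with a spread per group. Of 22 immediate early genes 4 fell and 2 rose. Without replicates 1, 2 and 3 labelled 14 days 2, 6 and 2 fell and 0, 5 and 1 rose. The 5 rises without replicate 2 were near the 20.4% of all genes in that fit. Without any 1 library of 3 days 1 to 3 fell and 0 or 1 rose. Nr4a1, an orphan nuclear receptor, was among those that rose, with 14.2, 18.4 and 9.12 FPKM in the libraries labelled 14 days, against 4.19 to 7.25 FPKM at 3 days (log2 fold change 1.63 (SE 0.35, adjusted p = 0.024)), a call that ended without replicate 1 labelled 14 days and without replicates 1, 3 or 4 of 3 days.

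Some proximal tubule transporters were low in all 3 libraries labelled 14 days. Of 53 tested markers 9 fell and none rose, and the median log2 fold change was -0.31. The fallen members included transporters known from the early proximal tubule. Slc5a2, the glucose cotransporter SGLT2, had 3.81, 6.3 and 3.71 FPKM in the libraries labelled 14 days, against 140, 230, 223, 216 and 58.6 FPKM at 3 days, a log2 fold change of -4.93 (SE 0.63, adjusted p = 0.0052). Slc4a4, the basolateral sodium bicarbonate cotransporter, had 1.26, 1.13 and 0.797 FPKM in the libraries labelled 14 days, against 59.5, 78.6, 39.3, 57.4 and 33.4 FPKM at 3 days, a log2 fold change of -5.37 (SE 0.42, adjusted p = 0.0017), also called with a spread per group. Slc5a12, a lactate cotransporter, had 0.802, 0.588 and 0.233 FPKM in the libraries labelled 14 days, against 25.1, 35.1, 33.7, 38.7 and 7.93 FPKM at 3 days, a log2 fold change of -5.43 (SE 0.71, adjusted p = 0.0056). These 3 genes were low in every library labelled 14 days and held whichever library was left out. Slc2a2, the basolateral glucose transporter GLUT2, had 0.876, 6.51 and 0.27 FPKM in the libraries labelled 14 days, against 70.3 to 109 FPKM at 3 days (log2 fold change -4.69 (SE 1.06, adjusted p = 0.028)); it was called with a spread per group, but its edgeR call ended in 6 of the 8 fits with a library left out and held without replicate 2 or 3 labelled 14 days.

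Other proximal markers differed between replicate 2 and the other libraries labelled 14 days. Lrp2, the endocytic receptor megalin, had 6.83, 191 and 2.91 FPKM in replicates 1, 2 and 3 labelled 14 days, against 127, 133, 164, 119 and 53.5 FPKM at 3 days. Slc34a1, the sodium phosphate cotransporter, had 54.9, 586 and 8.17 FPKM in replicates 1, 2 and 3 labelled 14 days, against 300, 509, 1170, 397 and 90.3 FPKM at 3 days. In both, replicate 2 lay above the median of 3 days while replicates 1 and 3 lay below all libraries of 3 days. Slc7a13 and Slc22a13, transporters of the late proximal tubule in rodents that were picked out after their values were seen, were high in replicate 2 alone. Slc7a13 had 9.59, 1764 and 11.5 FPKM in the libraries labelled 14 days, against 4.06 to 49.4 FPKM at 3 days, and Slc22a13 had 0.785, 43.4 and 0.388 FPKM in the libraries labelled 14 days, against 0.139 to 1.74 FPKM at 3 days. None of these 4 genes was called.

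The counts of the list depended on replicate 2. Without replicate 2, 43 of the 53 proximal tubule markers fell and none rose, with a median log2 fold change of -3.85. In replicate 2 alone 20 were higher and 7 lower, with a median of 1.14. The falling members numbered 5 and 7 without replicates 1 and 3 labelled 14 days, where 1 rose without replicate 3, and 6 to 8 without any 1 library of 3 days. Summed FPKM of the list was 1113, 18800 and 789 in replicates 1, 2 and 3 labelled 14 days, against 6160 to 14530 at 3 days.

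**Figure D4:**
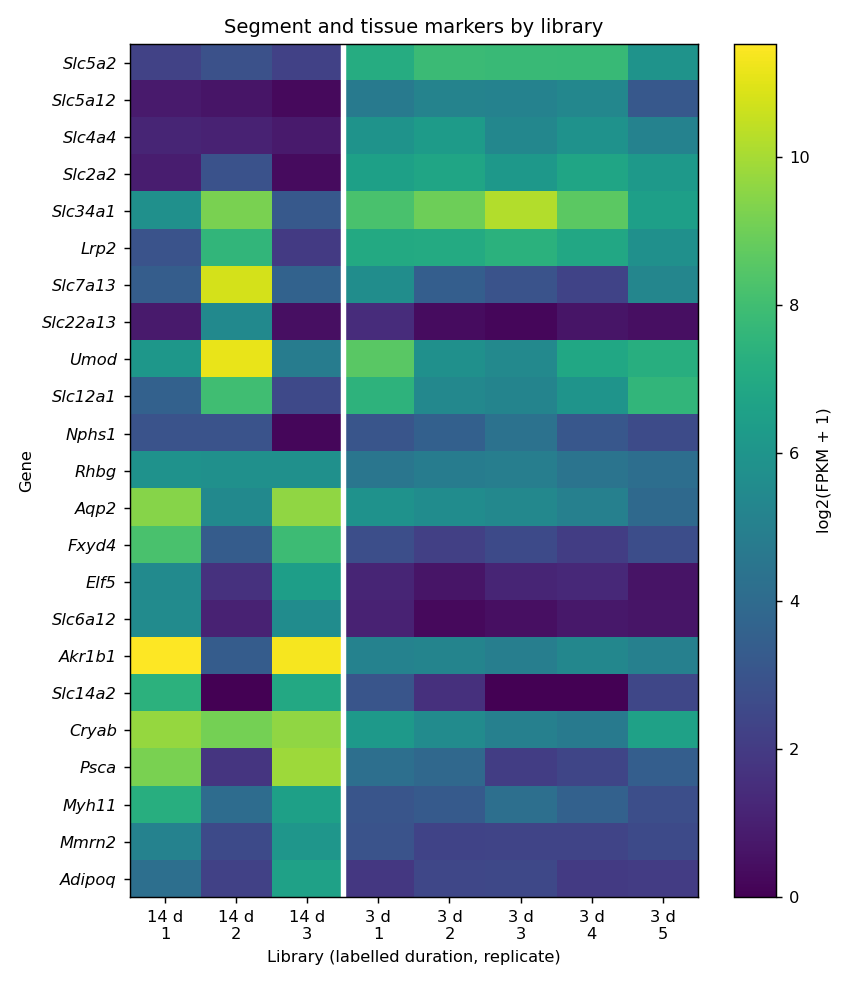
Log2 of FPKM plus 1 for 23 markers (rows) in the 3 libraries labelled 14 days (left of the white line) and the 5 of 3 days (right). Slc5a2, Slc5a12 and Slc4a4 are low in all 3 libraries labelled 14 days, Slc7a13 and Umod are highest in replicate 2, and Aqp2, Akr1b1, Slc14a2 and Psca are high in replicates 1 and 3.

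Some thick ascending limb genes differed between replicate 2 and the other libraries labelled 14 days. Umod, uromodulin, the most abundant urinary protein, had 67.9, 2270 and 27.2 FPKM in replicates 1, 2 and 3 labelled 14 days, against 381, 54, 41.3, 116 and 150 FPKM at 3 days, and was not called. Slc12a1, the sodium potassium chloride cotransporter NKCC2, had 10.8, 254 and 4.8 FPKM in replicates 1, 2 and 3 labelled 14 days, against 174, 40.7, 35.8, 61.7 and 192 FPKM at 3 days. It was not called with all libraries (log2 fold change 0.39), but fell without replicate 2 (log2 fold change -3.55, adjusted p = 0.0146). Of 18 tested genes of this segment 2 rose and 1 fell (median log2 fold change 0.73). Without replicate 2 labelled 14 days the counts were 3 and 6, beside 20.4% and 19.5% of all genes in that fit. They were 1 and 1 without replicate 1 labelled 14 days, and 3 and 1 without replicate 3. Without any 1 library of 3 days they were 2 and 1. In replicate 2 alone the median log2 fold change was 1.44. The rising genes held Bsnd, the barttin subunit of the ClC-K chloride channels, with 133, 33.1 and 114 FPKM in the libraries labelled 14 days, against 16.1 to 19.6 FPKM at 3 days, a log2 fold change of 2.57 (SE 0.32, adjusted p = 0.0047), also called with a spread per group. The fallen gene was Ptger3, a prostaglandin E2 receptor, with 6.29, 13.7 and 7.57 FPKM in the libraries labelled 14 days, against 40 to 105 FPKM at 3 days, a log2 fold change of -2.81 (SE 0.46, adjusted p = 0.011). Bsnd and Ptger3 were separated in FPKM too and held whichever library was left out.

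Several collecting duct principal cell genes rose. Of 16 tested markers 6 rose and none fell (median log2 fold change 0.69). Aqp2, the vasopressin-regulated water channel, had 694, 43.8 and 777 FPKM in replicates 1, 2 and 3 labelled 14 days, against 57.9, 47.7, 40.2, 31.5 and 14.4 FPKM at 3 days. Its log2 fold change was 3.84 (SE 0.75, adjusted p = 0.019); replicate 2 lay within the range of 3 days in FPKM, and the call ended without replicate 1 labelled 14 days or replicates 2 or 4 of 3 days. Fxyd4, a regulator of the sodium pump, had 294, 9.14 and 237 FPKM in the libraries labelled 14 days, against 3.31 to 5.91 FPKM at 3 days, a log2 fold change of 5.38 (SE 0.82, adjusted p = 0.0092). Elf5, a transcription factor of the principal cell, had 44.9, 2.1 and 86.7 FPKM in the libraries labelled 14 days, against 0.506 to 1.48 FPKM at 3 days, a log2 fold change of 5.50 (SE 0.88, adjusted p = 0.01). For both, replicate 2 lay above 3 days and far below replicates 1 and 3. The 6 rising genes became 2, 8 and 6 without replicates 1, 2 and 3 labelled 14 days, with 1 gene falling without replicate 2, and 5, 4, 5, 3 and 5 without replicates 1 to 5 of 3 days, and 2 were higher in replicate 2 alone. Without scaling factors 2 rose. Of 16 tested intercalated cell genes 1 rose and none fell (median log2 fold change 0.23), beside 4.47% and 6.61% of all tested genes. Summed FPKM of that list was 846, 1015 and 140 in replicates 1, 2 and 3 labelled 14 days, against 630 to 847 at 3 days. The rising gene was the ammonia transporter gene Rhbg, with 57.3, 54.5 and 54.8 FPKM in the libraries labelled 14 days, against 16.7 to 29 FPKM at 3 days. Its log2 fold change was 1.52 (SE 0.23, adjusted p = 0.0092).

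Few thin limb and medulla genes were called and separated. Of 12 tested thin limb and medulla genes 2 rose and none fell (median log2 fold change 1.85), a count of 2 in each fit with 1 library left out other than replicate 2 labelled 14 days, without which 6 rose and 1 fell. Without scaling factors 1 rose and 1 fell. Slc6a12, the betaine transporter, had 45.4, 1.13 and 47.9 FPKM in the libraries labelled 14 days, against 0.231 to 1.14 FPKM at 3 days, a log2 fold change of 5.78 (SE 0.94, adjusted p = 0.011), and its replicate 2 lay within 3 days in FPKM. Cryab, the small heat shock protein alpha B-crystallin, had 820, 556 and 782 FPKM in the libraries labelled 14 days, against 73.4, 46.8, 31.4, 25.1 and 95.8 FPKM at 3 days, a log2 fold change of 3.96 (SE 0.43, adjusted p = 0.0032). It was high in all 3 libraries labelled 14 days. Akr1b1, the aldose reductase that makes sorbitol, and Slc14a2, a urea transporter, were picked out after their values were seen. Akr1b1 had 2940, 9.17 and 2663 FPKM in replicates 1, 2 and 3 labelled 14 days, against 29.1 to 39.3 FPKM at 3 days, and was called but overlapped. Slc14a2 was listed at 166, 0 and 123 FPKM in replicates 1, 2 and 3 labelled 14 days, against 0 to 7.21 FPKM at 3 days. For both, replicate 2 lay at or below the lowest library of 3 days while replicates 1 and 3 lay far above.

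Podocyte genes showed 1 fall among 17 tested markers and no rise (median log2 fold change -0.73), a share near the 6.61% of all tested genes. Without replicate 2 labelled 14 days 2 fell and 2 rose, a lower share than the 19.5% and 20.4% of all genes in that fit. The slit diaphragm gene Nphs1 had 6.6, 6.65 and 0.134 FPKM in replicates 1, 2 and 3 labelled 14 days, against 5.3 to 19.1 FPKM at 3 days, and was not called. The receptor phosphatase gene Ptpro fell, with 2.17, 3.09 and 0.917 FPKM in the libraries labelled 14 days, against 10.2 to 20.6 FPKM at 3 days (log2 fold change -2.52 (SE 0.50, adjusted p = 0.019)), a call that ended without replicate 1 labelled 14 days or replicate 4 of 3 days.

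Several vessel and muscle genes rose. Of 21 tested endothelial genes 8 rose and none fell (median log2 fold change 1.66). Of 16 smooth muscle genes 5 rose and none fell (median 1.71). Sox17, a transcription factor of arterial endothelium, had 13, 6.5 and 14.2 FPKM in the libraries labelled 14 days, against 3.3 to 4.75 FPKM at 3 days, a log2 fold change of 1.66 (SE 0.18, adjusted p = 0.0035), also called with a spread per group. Mmrn2, an endothelial matrix protein, had 33.4, 4.94 and 64.9 FPKM in the libraries labelled 14 days, against 4.02 to 6.68 FPKM at 3 days. Nos3, endothelial nitric oxide synthase, had 16.9, 3.7 and 37.1 FPKM in the libraries labelled 14 days, against 2.85 to 3.87 FPKM at 3 days. Their log2 fold changes were 2.95 (SE 0.55, adjusted p = 0.017) and 2.59 (SE 0.48, adjusted p = 0.017). For both, replicate 2 lay within 3 days in FPKM. Both calls ended without replicate 1 labelled 14 days or replicate 4 of 3 days. In smooth muscle, the myosin gene Myh11 had 148, 16 and 93.3 FPKM in the libraries labelled 14 days, against 5.9 to 17.2 FPKM at 3 days (log2 fold change 3.23 (SE 0.60, adjusted p = 0.016)), a call that also ended without replicate 1 labelled 14 days or replicate 4 of 3 days. The enteric actin gene Actg2 had 123, 1.25 and 39.8 FPKM in the libraries labelled 14 days, against 0.0906 to 1.07 FPKM at 3 days, a log2 fold change of 6.71 (SE 1.16, adjusted p = 0.014). Both genes were far higher in replicates 1 and 3 than in replicate 2, which lay within 3 days for Myh11 in FPKM.

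The 8 rising endothelial genes became 2, 16 and 5 without replicates 1, 2 and 3 labelled 14 days and 4, 5, 8, 1 and 5 without replicates 1 to 5 of 3 days. The 5 rising smooth muscle genes became 1, 13 and 4 without replicates 1, 2 and 3 labelled 14 days and 4, 3, 6, 1 and 4 without replicates 1 to 5 of 3 days. Without scaling factors 1 gene rose in each list. Of 21 fibroblast and pericyte genes none was called and separated, 8 had an unadjusted p under 0.05 in edgeR and 5 were called by DESeq2. Cd34, which endothelium also expresses, was called but overlapped, with 37.2, 4.63 and 87.3 FPKM in the libraries labelled 14 days, against 4.89 to 8.7 FPKM at 3 days. By list, summed FPKM of endothelium was 768, 238 and 2038 in replicates 1, 2 and 3 labelled 14 days, against 236 to 328 at 3 days.

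Genes of tissues next to the parenchyma varied between the libraries labelled 14 days. Of 11 tested urothelium genes none was called and separated (median log2 fold change 2.45), 3 had an unadjusted p under 0.05 in edgeR and 2 were called by DESeq2, and summed FPKM was 1087, 68.5 and 1008 in replicates 1, 2 and 3 labelled 14 days, against 72.4 to 231 at 3 days. Psca, a surface protein of urothelium, had 592, 2.48 and 924 FPKM in the libraries labelled 14 days, against 3.22 to 17.7 FPKM at 3 days, and was called but overlapped. Of 11 adipocyte genes 4 rose and none fell (median 3.52), and summed FPKM was 497, 644 and 3272 in replicates 1, 2 and 3 labelled 14 days, against 127 to 1074 at 3 days. This list shares Pck1 with the proximal tubule and gluconeogenesis lists, and the part of Pck1 in the sums was not separated. At 3 days the sum of 1074 was in replicate 3, where the proximal tubule list also had its highest sum, 14530. The fat hormone gene Adipoq had 17.4, 3.65 and 96.9 FPKM in the libraries labelled 14 days, against 2.64 to 4.7 FPKM at 3 days, and replicate 2 lay within 3 days. Its call (log2 fold change 3.52 (SE 0.77, adjusted p = 0.026)) held in only 1 of the 8 fits with a library left out, that without replicate 2 labelled 14 days. Cidec, a lipid droplet protein, rose in every library labelled 14 days, with 14.7, 37.4 and 114 FPKM there, against 3.02 to 8.79 FPKM at 3 days (log2 fold change 3.58 (SE 0.58, adjusted p = 0.011)). The 4 rising adipocyte genes became 3, 8 and 2 without replicates 1, 2 and 3 labelled 14 days and 2 without any 1 library of 3 days, and without scaling factors 1 rose. The part of neighbouring tissue in the rises of vessel, muscle and collecting duct genes was not tested.

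**Figure D5:**
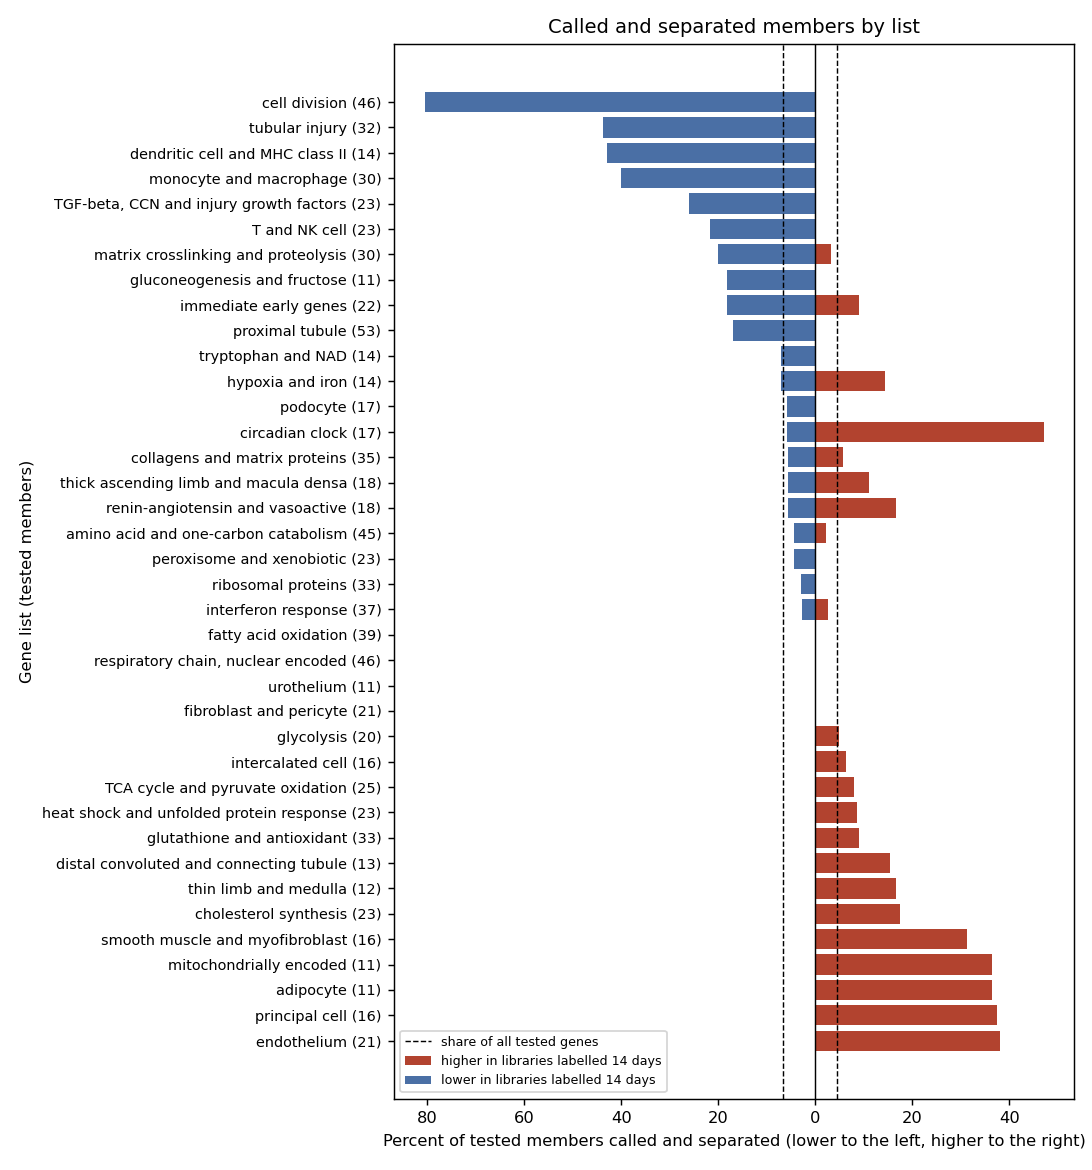
Percent of tested members called and separated in lists of at least 10 tested genes, with those higher in the libraries labelled 14 days to the right (red) and those lower to the left (blue). Dashed lines mark the shares of all tested genes, 4.47% higher and 6.61% lower, and the cell division list reaches furthest to the left, with 37 of 46 members.

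Genes of energy metabolism depended on replicate 2. None of 39 fatty acid oxidation genes and none of 46 nuclear genes of the respiratory chain was called and separated, and the median log2 fold changes were 0.03 and -0.03. At an unadjusted p under 0.05 in edgeR there were 4 fatty acid oxidation genes and no respiratory chain gene, and DESeq2 called 1 and 0. Without replicate 2, 17 fatty acid oxidation genes and 33 respiratory chain genes fell, while in replicate 2 alone 18 and 24 were higher. Ndufs7, a complex I subunit, had 70.9, 98.6 and 70.5 FPKM in the libraries labelled 14 days, against 61.8, 72.2, 79.7, 66.9 and 68.6 FPKM at 3 days. Of 11 tested mitochondrially encoded genes 4 rose and none fell (median 1.50). Mt-nd2, a complex I subunit, had 12810, 14800 and 10700 FPKM in the libraries labelled 14 days, against 4681 to 7543 FPKM at 3 days, a log2 fold change of 1.41 (SE 0.34, adjusted p = 0.034). Mt-nd4l had 9690, 11130 and 6313 FPKM in the libraries labelled 14 days, against 3101, 3174, 5490, 2803 and 3216 FPKM at 3 days, a log2 fold change of 1.64 (SE 0.37, adjusted p = 0.028). Both calls ended without replicate 1 labelled 14 days and without replicates 1, 2, 4 or 5 of 3 days. The 4 rising genes became 1, 5 and 8 without replicates 1, 2 and 3 labelled 14 days, none without replicates 1, 2, 4 or 5 of 3 days, and 5 without replicate 3 of 3 days.

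Genes that supply lipid synthesis and reducing power rose in a few cases. Of 23 cholesterol synthesis genes 4 rose and none fell, a count of 2, 8 and 2 without replicates 1, 2 and 3 labelled 14 days and of 2 without any 1 library of 3 days. Without replicates 2 and 3 labelled 14 days 3 and 1 fell, and without scaling factors 1 rose and 1 fell. Tm7sf2, a sterol reductase, had 26.2, 15.1 and 49.5 FPKM in the libraries labelled 14 days, against 6.28 to 7.19 FPKM at 3 days, a log2 fold change of 2.33 (SE 0.24, adjusted p = 0.0029). Me1, the cytosolic malic enzyme that makes NADPH, had 70.5, 48.9 and 103 FPKM in the libraries labelled 14 days, against 21.2 to 26.4 FPKM at 3 days, a log2 fold change of 1.81 (SE 0.16, adjusted p = 0.0021). Both lay above every library of 1, 3 and 7 days and were also called with a spread per group. Gsr, glutathione reductase, rose less (log2 fold change 0.93 (SE 0.17, adjusted p = 0.016)), was not called without scaling factors, and lost its call without replicate 1 labelled 14 days. Its replicate 2 labelled 14 days had 70.6 FPKM, within the 56.3 to 75.8 FPKM of 3 days. Among lower genes, Cyp7b1, an oxysterol hydroxylase, had a log2 fold change of -2.54 (SE 0.40, adjusted p = 0.01) and Pck2, mitochondrial phosphoenolpyruvate carboxykinase, one of -0.73 (SE 0.14, adjusted p = 0.018), which ended without replicate 1 labelled 14 days.

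Clock genes rose where they were called, except the repressor Nfil3, which fell. Of 17 tested members 8 rose and 1 fell (median log2 fold change 0.81). Arntl, which encodes the activator BMAL1, had 12.3, 8.61 and 15.1 FPKM in the libraries labelled 14 days, against 5.03, 4.44, 7.23, 4.88 and 5.88 FPKM at 3 days, a log2 fold change of 1.34 (SE 0.20, adjusted p = 0.0092). Nr1d1, the receptor REV-ERB alpha, which represses Arntl, had 39.2, 18.9 and 38.5 FPKM in the libraries labelled 14 days, against 19.4, 11.8, 10.8, 10.2 and 14.8 FPKM at 3 days, a log2 fold change of 1.48 (SE 0.23, adjusted p = 0.0094). Replicate 2 overlapped 3 days for Nr1d1 in FPKM. Dbp, an output activator, had a log2 fold change of 0.98 (SE 0.16, adjusted p = 0.012). Nfil3, which acts against Dbp, had 7.05, 9.53 and 6.49 FPKM in the libraries labelled 14 days, against 16.8 to 29.5 FPKM at 3 days (log2 fold change -1.28 (SE 0.28, adjusted p = 0.026)), a call that held only without replicate 2 labelled 14 days or replicate 3 of 3 days among the 8 fits. The 8 rising genes became 3, 10 and 4 without replicates 1, 2 and 3 labelled 14 days, with 2 genes falling without replicate 2, and 3 or 4 without any 1 library of 3 days, and 2 rose without scaling factors. The hour of tissue collection is not given in the sources used here.

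Vasoactive and stress genes included a few separated rises. Of 18 vasoactive genes 3 rose and 1 fell. Among these, Nos1 and Ptger3 were already counted with the thick ascending limb and Nos3 with the endothelium. Without replicates 1, 2 and 3 labelled 14 days 1, 6 and 5 rose and 1, 3 and 1 fell. Without scaling factors 1 rose and 2 fell. Ptgs2, the inducible cyclooxygenase, had 11.7, 2.77 and 7.27 FPKM in the libraries labelled 14 days, against 0.226 to 1.14 FPKM at 3 days, a log2 fold change of 3.69 (SE 0.52, adjusted p = 0.0074), also called with a spread per group. Nos1, the neuronal nitric oxide synthase of the macula densa, had 5.84, 0.659 and 5.05 FPKM in the libraries labelled 14 days, against 0.242 to 0.824 FPKM at 3 days (log2 fold change 3.25 (SE 0.60, adjusted p = 0.016)), and replicate 2 overlapped 3 days in FPKM. That call ended without replicate 1 labelled 14 days. Of 23 heat shock and unfolded protein response genes 2 rose and none fell (median log2 fold change 0.13). Without replicates 1, 2 and 3 labelled 14 days 1, 8 and 1 rose, and 2 fell without replicate 2. Ddit3, a transcription factor of endoplasmic reticulum stress, had 44.3, 12.8 and 28.7 FPKM in the libraries labelled 14 days. At 3 days Ddit3 had 11.1 to 12.4 FPKM, just below replicate 2. Its log2 fold change was 1.46 (SE 0.27, adjusted p = 0.017), a call that ended without replicate 4 of 3 days. Of 37 interferon response genes 1 rose and 1 fell (median log2 fold change 0.57), lower shares than the 4.47% and 6.61% of all tested genes. Without replicate 2 labelled 14 days 20 rose and 2 fell, against 20.4% and 19.5% of all genes in that fit. In replicate 2 alone the median log2 fold change was -0.84.

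Several of the largest rises lay above every library of 1, 3 and 7 days. Stc2, a secreted glycoprotein, was highest in replicate 2, with 5.75, 24.1 and 14.4 FPKM in the libraries labelled 14 days, against 0.64, 0.279, 0.178, 0.272 and 0.165 FPKM at 3 days, a log2 fold change of 5.82 (SE 0.62, adjusted p = 0.003). Ranbp3l, a relative of a nuclear export cofactor, had 206, 26.6 and 141 FPKM in the libraries labelled 14 days, against 6.84, 4.26, 4.61, 3.46 and 4.09 FPKM at 3 days, a log2 fold change of 4.89 (SE 0.51, adjusted p = 0.0029). Nov, a matricellular protein of the CCN family, had 9.41, 1.75 and 30.3 FPKM in the libraries labelled 14 days, against 0.636 to 0.792 FPKM at 3 days, a log2 fold change of 4.38 (SE 0.66, adjusted p = 0.0089). These 3 genes were also called with a spread per group. Npy1r, a neuropeptide Y receptor, had 11.1, 0.722 and 19.9 FPKM in the libraries labelled 14 days, against 0.391 to 0.474 FPKM at 3 days, a log2 fold change of 4.67 (SE 0.73, adjusted p = 0.01). It was not called by limma on log2(FPKM+1).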

How the data were processed

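The authors deposited a table of read counts and FPKM (fragments per kilobase and depth) for each gene and library. The submitters' processing notes list the read trimmer fastp (version 0.19.7) and the aligner HISAT2 (version 2.0.4), with no settings. The counter, strand use, annotation and genome build are not given in the labels or header, so overlapping and antisense genes cannot be told apart. The labels' protocols give RNAiso Plus for extraction, oligo(dT) beads for mRNA selection and random hexamers for priming.

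The deposited counts were tested in R 4.3.3 with edgeR 4.0.16 (TMM factors, filterByExpr with min.count 10 and min.total.count 15, quasi-likelihood test, Benjamini-Hochberg adjustment over 13920 genes). DESeq2 1.42.0, limma 3.58.1 and the other alternatives of the closing section were also run, and the edgeR code was tested on simulated data. Named genes were the 15 largest rises and falls with a mean of at least 5 FPKM in the higher group, per list up to 4 members of the commoner direction and 2 of the opposite one by adjusted p, and 14 markers named whatever their values, of which Alb did not pass the filter. Mllt6, Rarg, Slc7a13, Slc22a13, Akr1b1, Slc14a2, Plk1, Mcm3, Mcm7, Rrm1, Ttk, Pcna, Gins2 and the immune genes at 0 fall outside that rule. The comparison, the lists and the named markers were chosen with earlier results of these data known. Of 1169 list members, 1125 matched the table. The libraries of 1 and 7 days entered only as levels and in the fit on 18 libraries.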

Additional observations from a re-analysis of the deposited data

Results flagged for a closer look

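Among the 5 libraries of 3 days, a single library stood apart from the other 4 by Dixon's criterion (gap over range above 0.71) for 10 of 96 values tried, where chance gives about 1 in 20. Replicate 3 was low for Havcr1 (187.6 FPKM) and Adamts1 (150.0 FPKM) and high for Mt-nd4l (5490 FPKM). Replicate 5 was high for Lcn2 (1674 FPKM) and C3 (256.4 FPKM) and low for Fbln5 (27.54 FPKM). Replicate 1 was high for Slc22a13 (1.743 FPKM), Stc2 (0.6396 FPKM), Lif (26.62 FPKM) and total counts (12049915). The 3 libraries labelled 14 days are too few for that criterion.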

How the results depend on the processing

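The number of genes called and separated, 1542 (1851 called), depended on the libraries more than on the scaling. With 1 library left out it ran between 568 (569 called, without replicate 4 of 3 days) and 5746 (5844 called, without replicate 2 labelled 14 days); of the 1542 genes, 565 and 1539 were in these 2 sets. It was 2467 (4119 called) with all 18 libraries in the fit, 2433 (3501 called) in DESeq2, 2861 (2861 called) for replicate 2 labelled 14 days alone, 178 (179 called) when tested against a log2 fold change of 1, and 104 (104 called) with a spread per group. With the replicate block no gene was called in edgeR (0, with 1866 at an unadjusted p under 0.05). The numbers are not stated to pair animals, and deviations of same-numbered libraries correlated at 0.174, 0.072 and -0.242. Scaling, filtering, FPKM and leaving out mitochondrially encoded genes gave 1206 to 1908, but moved the share of called genes that were higher, to 22.7% without factors and 8.46% with log2(FPKM+0.1).

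Of 2052 values of 94 named genes under the alternatives, 1696 kept direction and side of the threshold, 325 lost the call, 14 gained it and 17 changed sign. Signs changed as follows, in log2 fold change, for genes not called in the comparison with all libraries except Akr1b1 and Psca. With 1 library left out, Slc12a1 ran between -3.55 (called, without replicate 2 labelled 14 days) and 0.957, Slc7a13 between -0.93 and 5.93, Slc22a13 between -0.05 and 5.59, Umod between -1.48 and 3.65, Lrp2 between -4.5 and 0.26, and Gins2 between -0.18 and 0.032. In replicate 2 alone the value was -1.32 for Akr1b1 (called), -1.43 for Psca, -8.92 for Slc14a2, 0.75 for Slc34a1 and 1.22 for Lrp2. Slc12a1 also gave -1.85 with the replicate block, -0.16 without factors, -1.62 and -1.72 on log2 FPKM with pseudocounts 1 and 0.1, and -1.39 with a spread per group. Of the 94 genes, 78 were called and separated, and 56 of these 78 kept their call in all 8 fits with 1 library left out. With a spread per group 23 of the 94 were called.

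The difference in mitochondrial share ran between 9.744 and 16.18 percentage points with 1 library left out, where the exact p cannot go below 0.0952 without a library labelled 14 days or 0.0571 without one of 3 days. The libraries labelled 14 days were the shallowest of the 8, which limits low genes. The cause of these differences was not tested.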

Other observations

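Among the libraries of 1, 3 and 7 days, replicate 5 of 1 day shared some high genes with replicates 1 and 3 labelled 14 days. It was the highest of these 15 libraries for 316 of the 622 genes higher in the libraries labelled 14 days, the next library being the highest for 56. It was the lowest of the 15 for 278 of the 920 lower genes, the next library being the lowest for 98. How often it was the highest or lowest over all tested genes was not counted. The genes below were high in replicates 1 and 3 labelled 14 days, while replicate 2 had 2.48 FPKM of Psca and 43.8 FPKM of Aqp2. In replicate 5 of 1 day Psca, a urothelial gene, had 279 FPKM, against 1.06 to 6.08 FPKM in the other 4 libraries of 1 day. Aqp2, the collecting duct water channel, had 371 FPKM in it, against 24.8 to 51.1 FPKM, and Fxyd4 had 102 FPKM, against 3.64 to 8.22 FPKM. The smooth muscle actin Actg2 had 24.0 FPKM, against 0.257 to 2.35 FPKM. The endothelial genes Nos3 and Mmrn2 had 21.6 and 21.9 FPKM, against 1.66 to 2.98 and 2.81 to 4.66 FPKM. This library entered no test of 14 against 3 days apart from the fit on all 18 libraries.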
